A study of Mus musculus with 2 samples.

Results

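T-cell receptor variable segments were read in 52 genes: 37 Trav genes of the alpha chain and 15 Trbv genes of the beta chain. They are the Trav and Trbv symbols with at least 1 UMI (unique molecular identifier, a counted RNA molecule) over both libraries in T barcodes. A T barcode is a droplet barcode with at least 1000 UMIs, at least 500 genes, at most 10% mitochondrial UMIs and at least 3 UMIs of Cd3e, Cd3d, Cd3g and Trbc2 together. The files list 163 Trav or Trbv symbols among 32285 genes, so 111 had no UMI in these barcodes. The members were selected on these same UMI counts, so their levels below are a description with no test.

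A T cell builds its receptor by joining 1 variable segment to a joining segment in each of its alpha and beta chain genes, and every daughter cell inherits the result. The variable segment forms most of the outer domain and carries the loops that touch the MHC molecule, while the junction forms the third loop, which touches the peptide. Short reads from the 3' end mostly cover the constant region, and the variable segment lies at the 5' end of the transcript, so it is read in few cells.

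Both groups are APP-KI mice aged 6 months, whose knocked-in App gene models Alzheimer's disease, and cells of the entire brain were dissociated. The groups are APP-KI Fit2-WT, with intact Fit2, and APP-KI Fit2-Mut, in which macrophage Fit2 is disrupted per the series' design text, with 1 library each of droplet-based 3' sequencing. The sources used here do not state how many animals gave each library, the Cre or promoter, or which stretch of Fit2 was changed. With 1 library per group there is no replicate check, so differences between libraries carry no p-value and cannot be told apart from differences between the animals or preparations. Percent ranges in parentheses are exact 95% Clopper-Pearson intervals that cover counting error only.

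The Fit2-WT library held 52491901 UMIs in all and the Fit2-Mut library 63234140. T barcodes were 209 of 5333 barcodes past the limits in Fit2-WT (3.92%) and 237 of 5979 in Fit2-Mut (3.96%), with median depths of 4347 and 4701 UMIs. The label was checked on genes the selection did not use: Trac had a UMI in 78.0% and 75.5% of T barcodes, Trbc1 in 61.2% and 59.9%, and Lck, the kinase that starts receptor signalling, in 79.4% and 81.4%. Microglial RNA differed between the libraries. The 10 microglial markers summed to 5412 CPM (counts scaled to a total of 1000000) in the Fit2-WT T barcodes and 14633 CPM in the Fit2-Mut ones, with a UMI in 130 of 209 and 167 of 237 barcodes. All 10 were higher in Fit2-Mut by at least 1.5-fold, and the part of this RNA in the results was not tested beyond the values without the richest barcodes, given beside the results it changes. Of the barcode sequences, 10 passed the limits in both libraries, and none was a T barcode in both.

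The segment on which the comparison of the libraries turned was Trav8n-2 (ENSMUSG00000076821, chr14:53345890-53346424, plus strand, mm10), 875 kb upstream of Trac. The Trav cluster of this reference holds near-identical copies, and the closest to Trav8n-2 among those compared are Trav8-2 (a pseudogene, chr14:53738375-53738838) and Trav8d-2 (chr14:53042428-53042891), both on the plus strand. Over the whole coding sequence of the GENCODE M21 transcripts (GRCm38, the same assembly as mm10), Trav8-2 differed from Trav8n-2 at 16 of 337 bases and Trav8d-2 at 24, with longest identical runs of 123 and 99 bases. Of the 37 Trav members, 28 had another variable segment at least 95% identical over the coding bases, and of the 15 Trbv members none did. How reads that fit several copies were counted is not given in the sources used here, so counts of single Trav copies are uncertain. Some copies in the files are 100% identical to another, such as Trav12d-1 and Trav12n-1, and no member was. The highest identity of a member was 99.7%, for Trav11. Of the symbols with d or n after the family number, 5 of 39 and 5 of 34 had a UMI. Whether identical copies were used by these cells cannot be read from the counts.

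The pair of neighbouring beta segments Trbv12-2 (chr6:41118851-41119364) and Trbv12-1 (chr6:41113550-41114067) is shown since Trbv12-2 had the most barcodes of any Trbv, and to make visible how far a read could tell neighbours apart. Sequences are the last 240 coding bases of each GENCODE M21 transcript, 5' to 3'. Capitals in Trbv12-1 mark bases that differ from Trbv12-2. Both lie on the plus strand.
Trbv12-2: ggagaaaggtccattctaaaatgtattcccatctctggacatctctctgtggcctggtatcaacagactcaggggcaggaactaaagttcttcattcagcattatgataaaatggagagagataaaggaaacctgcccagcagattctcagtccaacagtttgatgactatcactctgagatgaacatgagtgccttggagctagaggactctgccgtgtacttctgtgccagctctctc
Trbv12-1: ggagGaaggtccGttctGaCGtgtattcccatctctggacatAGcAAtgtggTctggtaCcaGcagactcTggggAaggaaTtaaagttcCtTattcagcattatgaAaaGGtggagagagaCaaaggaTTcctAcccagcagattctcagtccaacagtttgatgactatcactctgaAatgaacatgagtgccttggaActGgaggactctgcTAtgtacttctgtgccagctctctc
Over the whole coding sequence these differed at 44 of 372 bases, and the longest identical run was 44 bases.

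A further set is shown because the results below return to it: Trav4-4-dv10 (chr14:53683647-53684177) and Trbv1 (chr6:40891229-40891885), the only pair found in more than 1 barcode, and Trav11 (chr14:53519303-53519859), the alpha segment of invariant natural killer T cells. All are on the plus strand. The capitals mark the last in-frame cysteine codon with a tyrosine codon among the 2 before it, the usual start of the third loop; the junction itself is not in these counts.
Trav4-4-dv10: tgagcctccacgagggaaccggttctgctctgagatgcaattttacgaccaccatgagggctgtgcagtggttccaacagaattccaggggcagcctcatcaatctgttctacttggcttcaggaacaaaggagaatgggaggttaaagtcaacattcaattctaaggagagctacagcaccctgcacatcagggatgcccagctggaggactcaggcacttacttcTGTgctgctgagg
Trbv1: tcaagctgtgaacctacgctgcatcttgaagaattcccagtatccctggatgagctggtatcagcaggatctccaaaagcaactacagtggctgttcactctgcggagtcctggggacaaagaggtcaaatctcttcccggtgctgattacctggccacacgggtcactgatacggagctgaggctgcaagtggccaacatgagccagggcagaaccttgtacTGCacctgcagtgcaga
Trav11: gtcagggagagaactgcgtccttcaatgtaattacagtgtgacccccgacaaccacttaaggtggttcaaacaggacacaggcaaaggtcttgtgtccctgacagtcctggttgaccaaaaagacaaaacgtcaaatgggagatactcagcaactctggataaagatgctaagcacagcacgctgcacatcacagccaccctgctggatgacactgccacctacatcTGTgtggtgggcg

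A beta segment was read in about the same share of T barcodes in both libraries, and an alpha segment in a larger share in Fit2-WT. A Trbv UMI was found in 25 of 209 Fit2-WT T barcodes (12%, 7.89 to 17.1) and in 26 of 237 Fit2-Mut T barcodes (11%, 7.29 to 15.7). A Trav UMI was found in 52 Fit2-WT barcodes (24.9%, 19.2 to 31.3) and in 34 Fit2-Mut barcodes (14.3%, 10.1 to 19.5). Without the barcodes holding Trav8n-2, a setting chosen after seeing the data, the Fit2-WT share was 35 of 192 (18.2%).

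Median depth was close in T barcodes with and without a segment, at 4387 and 4328.5 UMIs for the Fit2-WT library and at 4697.5 and 4746 UMIs for Fit2-Mut. To set the barcodes at equal total UMIs, the share expected with 1000 UMIs drawn from every barcode was computed exactly. For Trbv it was 2.52% in Fit2-WT and 2.58% in Fit2-Mut. For Trav it was 10.0% in Fit2-WT and 3.93% in Fit2-Mut, and for Trav other than Trav8n-2 it was 5.42% and 3.93%. Equal total UMIs did not mean equal T-cell RNA. The 12 T-cell markers, which include the selecting genes, summed to 6111 CPM in Fit2-WT and 4604 CPM in Fit2-Mut T barcodes. Summed over all T barcodes, the constant regions were read more often than the variable segments. There were 121 Trav and 440 Trac UMIs in Fit2-WT, and 59 Trav and 504 Trac UMIs in Fit2-Mut. The Trav8n-2 barcodes described below went the other way, with 60 Trav8n-2 and 38 Trac UMIs. There were 27 Trbv UMIs in each library, beside 1485 and 1653 UMIs of Trbc2.

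Variable segments were almost confined to T barcodes. Among barcodes with no UMI of the 4 selecting genes, 2 of 5084 held a Trav or Trbv UMI in Fit2-WT (0.0393%, 0.00476 to 0.142) and 5 of 5694 in Fit2-Mut (0.0878%, 0.0285 to 0.205), at median depths of 7071 and 7662 UMIs. In barcodes with 10 to 100 UMIs, which hold mostly free RNA, 9 Trav and 6 Trbv UMIs were found among 3809637 UMIs in Fit2-WT, and 1 Trav and no Trbv UMI among 3782850 in Fit2-Mut.

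Most positive barcodes held 1 segment of a chain. In Fit2-WT 24 of 25 barcodes with a Trbv held 1 Trbv, and the other held Trbv2 and Trbv12-1. In Fit2-Mut all 26 did. All 52 Fit2-WT barcodes with a Trav held 1 Trav, as did 33 of 34 in Fit2-Mut, the other holding Trav14-2 and Trav3-3. Most detections were single molecules: 25 of 26 Trbv detections in each library had 1 UMI, against 29 of 52 Trav detections in Fit2-WT and 22 of 35 in Fit2-Mut.

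**Figure D1:**
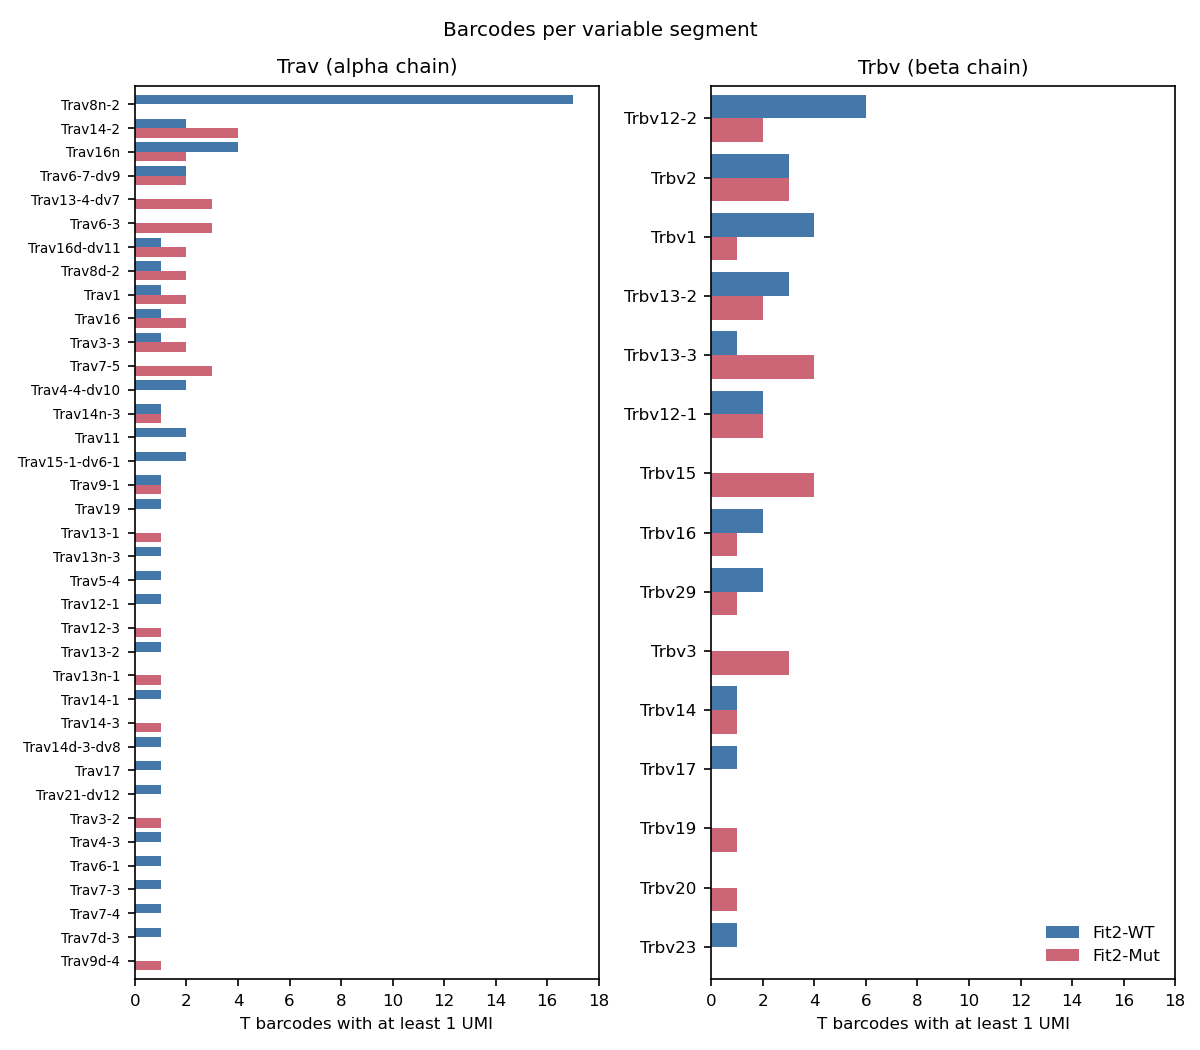
Number of T barcodes (x axis) with at least 1 UMI of each Trav segment (left) and each Trbv segment (right), in Fit2-WT (blue, 209 T barcodes) and Fit2-Mut (red, 237). Trav8n-2 had 17 Fit2-WT barcodes and 0 Fit2-Mut barcodes, while no other segment exceeded 6 in either library.

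Trav8n-2 was read in 17 of 209 Fit2-WT T barcodes (8.13%, 4.81 to 12.7) and in 0 of 237 Fit2-Mut T barcodes, which by a floor of 3 counts allows a share of up to 1.27% (exact upper bound 1.54%). It made up 32.7% (20.3 to 47.1) of the Fit2-WT barcodes with a Trav. The 17 barcodes held 60 of its UMIs, with 1 in the lowest, 3 at the median and 8 in the highest, and 14 held at least 2. Against the floor of 3 counts over the Fit2-Mut T barcodes, its CPM was at least 30.1-fold lower in Fit2-Mut. UMIs of the other Trav genes numbered 61 in the Fit2-WT T barcodes and 59 in the Fit2-Mut ones. Scaled to the unequal totals these were 52.4 and 33.6 CPM, a ratio of Fit2-Mut over Fit2-WT of 0.642 (exact 95% conditional interval 0.441 to 0.934). The interval takes UMIs as independent, but they were clumped in few barcodes. Trav4-4-dv10 gave 14 of the Fit2-WT UMIs in 2 barcodes, and Trav13-4-dv7 gave 16 of the Fit2-Mut UMIs in 3. The interval therefore does not settle whether the other Trav genes were lower. On the same scale Trac and Trbc2 had ratios of 0.760 and 0.739.

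Trav8n-2 was the only member with at least 20 UMIs over both libraries, the minimum for calling a fold. It is 1 of the genes lower in Fit2-Mut by at least 1.5-fold, as were 8.32% of the 9807 genes with that many UMIs. Another 17.8% were higher, 26.2% either way. Among these 9807 genes, 2 had no UMI in the Fit2-Mut T barcodes, Trav8n-2 and Vtn, whose 34 UMIs came from 3 barcodes, and 17 had none in the Fit2-WT T barcodes.

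Trav8n-2 had 3.53 UMIs per positive Fit2-WT barcode, beside a median of 1.15 over the 4026 genes found in 10 to 30 Fit2-WT T barcodes, of which 106 (2.63%) were at or above it. Other segments read in 1 to 3 barcodes had more: Trav4-4-dv10 and Trav19 had 7.0 UMIs per positive Fit2-WT barcode and Trav13-4-dv7 had 5.33 in Fit2-Mut. The same 17 barcodes held 38 Trac UMIs, fewer than their 60 Trav8n-2 UMIs. Segments thus differed in how readily they were read, and the reason was not tested. None of them held another Trav or any Trbv UMI. No barcode with 0 UMIs of the selecting genes held Trav8n-2, 2 UMIs of it were found in the low-UMI barcodes of Fit2-WT, and Scrublet called 2 of the 17 as doublets.

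**Figure D2:**
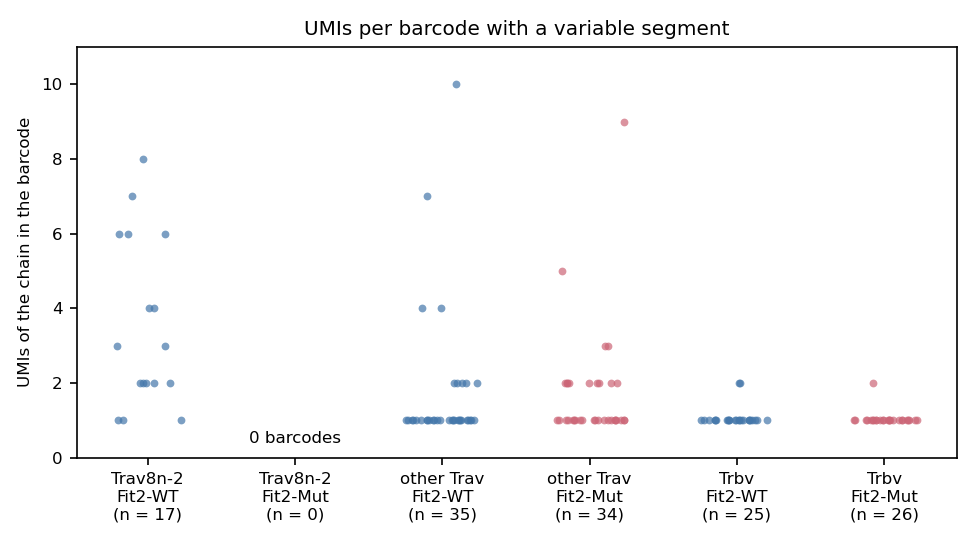
UMIs of a chain (y axis) in each T barcode that held it, 1 point per barcode, for Trav8n-2, the other Trav segments and the Trbv segments in each library. Trav8n-2 barcodes reach 8 UMIs with a median of 3, while nearly all Trbv barcodes sit at 1.

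The Trav8n-2 barcodes were mostly CD8 T barcodes: 16 of 17 held a UMI of Cd8a or Cd8b1, the chains of the CD8 co-receptor, and none held Cd4. They are described beside the 124 other Fit2-WT T barcodes with Cd8 and the 173 Fit2-Mut T barcodes with Cd8, with median depths of 3561, 4367 and 4844 UMIs. The group was formed after its segment had been seen, and no difference was tested.

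All 17 held Trbc1, 1 of the 2 interchangeable beta constant regions (100%, 80.5 to 100), beside 62.1% of the other Fit2-WT and 59.0% of the Fit2-Mut CD8 barcodes. At 1000 UMIs the expected shares were 75.0%, 40.6% and 31.7%. Barcodes with no UMI of the selecting genes held Trbc1 in 0.629% in Fit2-WT and 0.369% in Fit2-Mut. Trbc2 was found in 94.1%, 96.0% and 97.7%, but it is 1 of the genes that selected T barcodes.

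The fixed lists were mixed in the Trav8n-2 barcodes as sequenced. Of 10 cytotoxic genes, 5 had a higher share there than in both other groups (Gzmk, Nkg7, Ccl5, Ifng and Ctsw) and 5 a lower one (Gzma, Gzmb, Prf1, Klrd1 and Klrk1). Of 6 exhaustion genes, Pdcd1, Tigit, Tox and Ctla4 had a higher share than in both, Lag3 a lower one, and Havcr2 lay between. Prf1, the pore-forming perforin, was found in 29.4%, 30.6% and 40.5%, and Lag3, an inhibitory receptor, in 5.88%, 8.87% and 15.6%.

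Gzmk, a granzyme of memory-like CD8 T cells, was found in 88.2% (63.6 to 98.5) of them, in 47.6% (38.5 to 56.7) of the other Fit2-WT and in 68.2% (60.7 to 75.1) of the Fit2-Mut CD8 barcodes. The shares expected at 1000 UMIs were 44.4%, 22.2% and 29.0%. Pdcd1, which encodes the inhibitory receptor PD-1, was found in 64.7% (38.3 to 85.8), 16.1% (10.1 to 23.8) and 35.3% (28.2 to 42.9), and at 1000 UMIs in 23.2%, 6.51% and 9.04%. In barcodes with no UMI of the selecting genes, Gzmk was found in at most 0.0787% and Pdcd1 in at most 4.18%.

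Tox, a transcription factor of chronically stimulated T cells, was found in 88.2%, 58.9% and 67.6%, with 52.4%, 28.6% and 29.8% expected at 1000 UMIs. Barcodes without the selecting genes held Tox in 20.2% and 22.0%. Cxcr6, a chemokine receptor of tissue T cells, was found in 88.2%, 55.6% and 72.3%, with 44.8%, 25.7% and 30.4% expected at 1000 UMIs and at most 0.315% in barcodes without the selecting genes. The rest of the fixed list of tissue-resident T cells was mixed in the same 3 groups. Bhlhe40 was highest in the Trav8n-2 barcodes (47.1%, 26.6% and 31.2%) and Cd69 lay between (64.7%, 60.5% and 66.5%). Itgae (0%, 4.84% and 2.31%) and Itga1 (17.6%, 25.0% and 33.5%) were lowest there. Gzmb, the granzyme of killer cells, was found in 23.5%, 25.8% and 24.9%.

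Of the 6 genes of naive and recirculating T cells, 5 had a lower share in the Trav8n-2 barcodes than in both other groups and Lef1 lay between, at 29.4%, 49.2% and 27.7%. None of the 17 held Ccr7, a lymph node homing receptor. Its exact interval reaches 19.5%, above the 16.1% of the other Fit2-WT and the 12.1% of the Fit2-Mut CD8 barcodes. Klf2, which drives the exit receptors, was found in 11.8% (1.46 to 36.4), 45.2% (36.2 to 54.3) and 36.4% (29.2 to 44.1), with 4.15%, 32.5% and 21.3% expected at 1000 UMIs. Barcodes without the selecting genes, which are deeper and hold other cell types, had Klf2 in 18.4% and 16.6%. Tcf7, a transcription factor of naive and memory T cells, was found in 17.6%, 34.7% and 30.6%, and S1pr1, the exit receptor, in 11.8%, 35.5% and 25.4%.

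**Figure D3:**
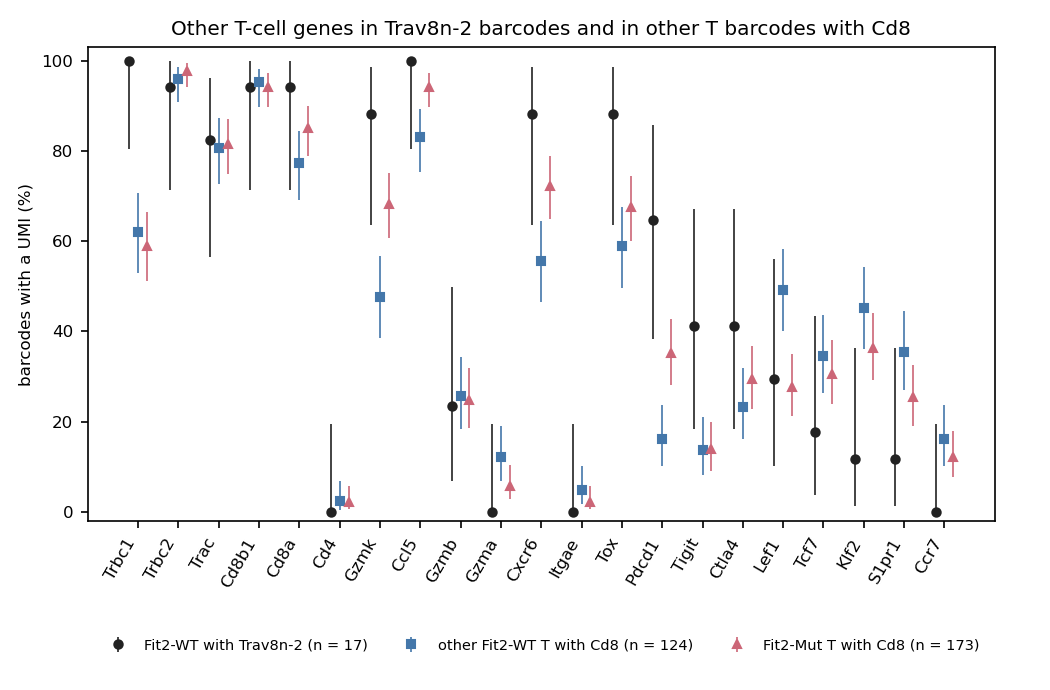
Percent of barcodes with a UMI (y axis) of receptor, effector, exhaustion and naive genes (x axis), with exact 95% intervals for counting error, as sequenced. The genes are a selection from the lists. Of the exhaustion genes, Lag3 (lowest in the Trav8n-2 barcodes) and Havcr2 (between) are not shown. Of the cytotoxic genes, Prf1, Klrd1 and Klrk1 (lowest there) and Nkg7, Ifng and Ctsw (highest there) are not shown. Black circles are the 17 Trav8n-2 barcodes, blue squares the 124 other Fit2-WT T barcodes with Cd8 and red triangles the 173 Fit2-Mut T barcodes with Cd8; Trbc1, Gzmk and Pdcd1 are highest and Ccr7 is at 0 in the Trav8n-2 barcodes.

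The rest of the alpha repertoire was spread thinly. Of the 37 Trav members, 28 were read in Fit2-WT and 19 in Fit2-Mut, 10 in both, and 20 were read in 1 barcode only. At an equal 35 detections, 20.6 members were expected in Fit2-WT, beside the 19 in Fit2-Mut. The inverse Simpson number, which counts equally detected segments, was 7.82 in Fit2-WT and 15.5 in Fit2-Mut, and 21.5 in Fit2-WT without Trav8n-2.

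After Trav8n-2 came Trav14-2, in 2 Fit2-WT and 4 Fit2-Mut barcodes, and Trav16n, in 4 and 2. Trav14-2 was the largest alpha segment of Fit2-Mut at 11.8% (3.30 to 27.5) of barcodes with a Trav. Trav6-7-dv9 was in 2 barcodes of each library. Trav16d-dv11, Trav8d-2, Trav16 and Trav3-3 were each in 1 Fit2-WT and 2 Fit2-Mut barcodes, and Trav14n-3 was in 1 of each.

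Most Trav members were found in 1 library alone, 18 in Fit2-WT and 9 in Fit2-Mut. The 20 members read in 1 barcode only could not fall in both libraries, so these counts mostly follow from low detection. Apart from Trav8n-2 these had at most 3 barcodes each, a number too small to set the libraries apart. Trav13-4-dv7 was in 3 Fit2-Mut barcodes, all with Cd8, with 9, 5 and 2 UMIs. The barcode with 9 UMIs also held 1160 UMIs of the 10 microglial markers. Trav6-3 was in 3 Fit2-Mut barcodes with 5 UMIs, none of them with Cd8, and 2 of the 3 held Zbtb16, the transcription factor of innate-like T cells. Trav7-5 was in 3 Fit2-Mut barcodes with 1 UMI each.

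The beta repertoire was led by different segments in the libraries, at low counts. Of the 15 Trbv members, 11 were read in Fit2-WT and 13 in Fit2-Mut, 9 of them in both, with inverse Simpson numbers of 7.86 and 9.94 over 26 detections in each library. Trbv12-2 led in Fit2-WT with 6 of 25 barcodes (24.0%, 9.36 to 45.1), against 2 of 26 in Fit2-Mut. Trbv13-3 and Trbv15 led in Fit2-Mut with 4 of 26 each (15.4%, 4.36 to 34.9), against 1 and 0 in Fit2-WT. All these intervals overlap.

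Trbv2 was in 3 barcodes of each library, Trbv12-1 in 2 of each and Trbv14 in 1 of each. Trbv1 was in 4 Fit2-WT barcodes and 1 Fit2-Mut barcode, Trbv13-2 in 3 and 2, Trbv16 and Trbv29 in 2 and 1. Trbv3 was in 3 barcodes, Trbv19 and Trbv20 in 1 each, all of Fit2-Mut, and Trbv17 and Trbv23 in 1 Fit2-WT barcode each. The 7 members from Trbv12-1 to Trbv16, a stretch picked after its values were seen, made up 15 of 26 detections in Fit2-WT and 16 of 26 in Fit2-Mut.

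Functional segments made up nearly all detections. UMIs were found for 36 of 108 Trav genes and 1 of 20 Trav pseudogenes, Trav3-2, and for 15 of 22 Trbv genes and 0 of 13 Trbv pseudogenes. The Trav genes without a UMI include all copies identical to another, so the Trav counts do not measure use alone. The members spanned 345 to 1793 kb upstream of Trac and 275 to 656 kb upstream of Trbc2.

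**Figure D4:**
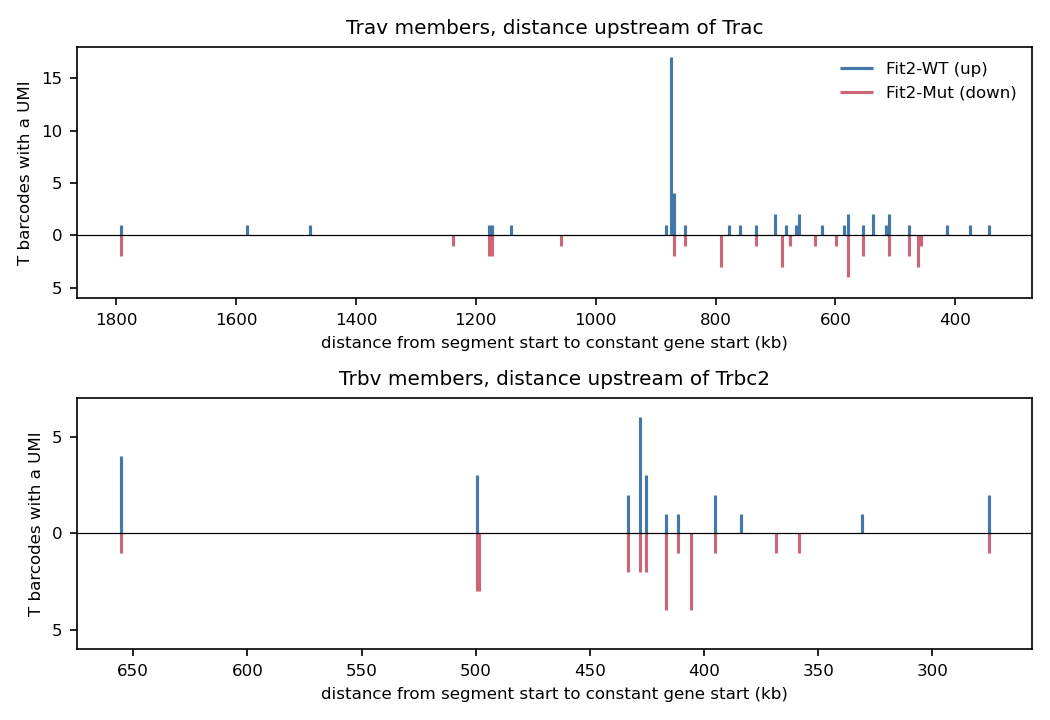
T barcodes with a UMI of each member (y axis, Fit2-WT upward and Fit2-Mut downward) by distance upstream of the constant gene in kb (x axis), Trav members above and Trbv members below. Detections spread over both clusters, and the tall line at 875 kb is Trav8n-2.

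An alpha and a beta segment were read together in 6 Fit2-WT barcodes (2.87%, 1.06 to 6.14) and 2 Fit2-Mut barcodes (0.844%, 0.102 to 3.01). They gave 7 distinct pairs. Only Trav4-4-dv10 with Trbv1 was in more than 1 barcode: both were Fit2-WT barcodes with Cd8, with 10 and 4 Trav4-4-dv10 UMIs and 1 Trbv1 UMI each. The barcode with 4 UMIs also held 453 UMIs of the microglial markers and is among those left out when barcodes rich in microglial RNA are removed, which leaves 0 shared pairs. The counts hold no junction, so a shared pair does not identify a clone.

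Alpha segments of invariant T cells were read in few barcodes. Invariant natural killer T cells join Trav11 to Traj18 and pair it with Trbv1, Trbv13-2 or Trbv29. These beta segments were not rare beside other Trbv: Trbv1 and Trbv13-2 ranked 3 and 4, with 5 barcodes each over both libraries. Trav11 was in 2 Fit2-WT barcodes with 3 UMIs, both with Cd4 and without Cd8, and 1 of them held Traj18. It was in 0 Fit2-Mut barcodes, and its close copy Trav11d, 1 base different, had no UMI. Trav1, the alpha segment of MAIT cells, was in 1 Fit2-WT and 2 Fit2-Mut barcodes. Traj18 was in 4 and 7 barcodes, and no Trbj UMI was found among 14 genes. Other Traj18 barcodes held Trav8n-2 or Trbv12-1, each with Cd8, in Fit2-WT, and Trav16d-dv11, Trav6-3 or Trav14n-3 in Fit2-Mut. The remaining Fit2-Mut Traj18 barcodes held no Trav or Trbv UMI, so their alpha segment is unknown. Traj18 was thus also read beside alpha segments other than Trav11, at low counts, and was not taken alone as the mark of an invariant cell.

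Segments with dv in their names can serve the alpha or the delta chain, and 7 of 10 such Trav symbols were members. Trav15-1-dv6-1 was in 2 Fit2-WT barcodes, and 1 of these held 3 UMIs of Trdc, the delta constant region, and 2 of the gamma segment Tcrg-V1. Gamma variable segments were found in 26 Fit2-WT T barcodes (12.4%) and 31 Fit2-Mut T barcodes (13.1%), mostly Trgv2, in 19 and 29. Delta segments of the Trdv group were in 2 and 3 barcodes.

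Segment detection was compared between T barcodes with and without a UMI of Cd8a or Cd8b1. In Fit2-WT, a Trav UMI was in 38 of 140 barcodes with Cd8 (27.1%) and 14 of 69 without (20.3%), and a Trav other than Trav8n-2 in 15.7% and 18.8%. In Fit2-Mut the shares were 13.3% of 173 and 17.2% of 64. A Trbv UMI was in 12.1% and 11.6% of the Fit2-WT barcodes with and without Cd8, and in 11.6% and 9.38% of the Fit2-Mut ones.

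Other genes of the receptor pathway are given as fixed lists, with the median log2 ratio of Fit2-Mut over Fit2-WT beside a median of 0.05 over the 9807 genes. Of 18 constant region and signalling genes, 1 was higher in Fit2-Mut by at least 1.5-fold and 2 were lower, beside 17.8% and 8.32% of all genes, with a median of -0.37. The higher one was Trdc, in 4 Fit2-WT and 5 Fit2-Mut barcodes, where 20 of its 38 Fit2-Mut UMIs were in 1 barcode. The lower ones were the gamma constant genes Tcrg-C1 and Tcrg-C4. Trac stood at 378 and 287 CPM and Trbc2 at 1276 and 943 CPM. Of the co-receptors, Cd4 was lower, at 34.4 and 13.1 CPM. Rag1, Rag2 and Ptcra, which act in receptor assembly in the thymus, had no UMI in either library.

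The lists of T-cell states are read beside the same 8.32% lower and 17.8% higher over all genes. Of 6 naive genes 5 were lower in Fit2-Mut, with a median of -0.97: Lef1 stood at 295 and 144 CPM and Ccr7 at 73.9 and 37.6 CPM. Of 10 cytotoxic genes 3 were lower in CPM, Gzma, Gzmb and Prf1, and none was higher. The share of T barcodes with a UMI did not follow for 2 of the 3: Prf1 was found in 27.8% and 35.4%, Gzmb in 22.0% and 22.4%, and Gzma was found in 25 and 19 barcodes. Of 6 exhaustion genes Lag3 and Havcr2 were higher and Tigit was lower in CPM. T barcodes with the microglial list at 1% of UMIs or more numbered 15 in Fit2-WT and 45 in Fit2-Mut. Their part in the higher Lag3 and Havcr2 was not tested, so these 2 values are not read as a T-cell state. Tigit had 34 UMIs in each library, in 12.9% and 12.7% of T barcodes, so its lower CPM reflects only the larger UMI total of Fit2-Mut. Markers of other cell types moved with these values in the same T barcodes, and their part was not tested. All 10 microglial markers were higher in Fit2-Mut (median 1.44), as were 4 of 5 oligodendrocyte markers (3.74). All 4 endothelial markers (-2.66), 3 choroid plexus markers of 3 measured (-1.04) and 4 of 5 astrocyte markers (-0.90) were lower. Of 7 natural killer cell markers, 3 were lower (Ncr1, Gzma and Klra8) and 1 higher (Tyrobp), with a median of -0.46. Klra8 had 38 UMIs in each library, so its lower CPM reflects only the larger UMI total of Fit2-Mut. Tyrobp had 1203 and 4113 UMIs, and the part of other cell types in its rise was not tested.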

How the data were processed

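Single-cell data from whole brain were analysed, with 1 library per genotype and a median of 4347 and 4701 UMIs per T barcode. The deposited values are whole-number UMI counts per gene and barcode for all barcodes, not normalized, per the file headers. Reads were processed with Cell Ranger, version 7.1.0 per the file headers (7.0.0 in the submitters' processing notes), on mm10; the handling of reads that fit several genes is not given in the sources used here.

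T barcodes were taken by the limits in the text. The members and lists were chosen with earlier results of these data known. Named segments were the 15 Trav and 15 Trbv with most T barcodes, those of invariant T cells, and any pair in at least 3 barcodes, of which there was none. CPM is counts over the summed UMIs; genes with at least 20 UMIs together were called at 1.5-fold. Intervals are 95% exact, and a count of 0 was given a floor of 3 counts; intervals and floors cover counting error only. Doublets were marked with Scrublet in Scanpy 1.11.5 and kept, and its effect was tried. The fold step was tested on simulated data. Sequences came from GENCODE M21; some items are not reported here.

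Barcodes differ in depth, so shares were also computed at 1000 UMIs. A first random draw and a second gave different values for the 17 Trav8n-2 barcodes: Trav8n-2 itself was kept in 8 and in 12 of them, and Gzmk in 5 and in 8. The profile was therefore given as the exact hypergeometric expectation, which has no draw; this was decided after both draws had been seen. For Trav8n-2 that expectation is 56.5%.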

Additional observations from a re-analysis of the deposited data

How the results depend on the processing

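With 1 library per group, no limit below addresses variation between animals. Depth limits what can be read: most detections are 1 UMI, so an unread segment is not shown to be unused. Of the 308 planned comparisons of a value with its alternative, 267 moved by less than the counting interval or 1.5 times and 41 moved. The only called member, Trav8n-2, was in 0 Fit2-Mut barcodes past the limits. The sign of its fold was thus fixed in advance and is not a check on the processing. No paired analysis was possible because each group has 1 library.

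Thinned to 1000 UMIs in 1 random draw, Fit2-WT gave Trbv 2.39%, Trav 9.09%, both 0%, 15 members, 1 Trbv in 100% of Trbv barcodes, and a segment in 11.7% with and 11.3% without Cd8. Fit2-Mut gave Trbv 2.95%, Trav 5.06%, both 0%, 15 members, 1 Trav in 100%, and 9.35% with and 6.92% without Cd8. Shared pairs fell to 0, members lower in Fit2-Mut to 0 (fewer UMIs, so none reached 20), and segment UMIs outside T barcodes to 0 in Fit2-WT and 0 in Fit2-Mut. A second draw gave 3 and 5 Trbv barcodes and 22 and 6 Trav barcodes in Fit2-WT and Fit2-Mut, beside 5 and 7, and 19 and 12, in the first.

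With at least 2 UMIs of a segment required, Fit2-WT gave Trbv 0.478%, Trav 11%, both 0%, 10 members, largest Trbv share 100%, largest Trav share 60.9%, 1 Trbv in 100%, and a segment in 13.6% with and 7.25% without Cd8. Fit2-Mut gave Trbv 0.422%, Trav 5.49%, both 0%, 9 members, largest Trbv share 100%, 1 Trav in 100%, and 5.20% with and 7.81% without Cd8; shared pairs were 0.

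Without barcodes whose microglial list takes at least 1% of UMIs, 1 Trav was held in 100% of Fit2-Mut Trav barcodes and shared pairs were 0. Without barcodes with 2 or more Trbv, 1 Trbv was held in 100% in Fit2-WT, by construction. With the minimum of 20 UMIs replaced by 1 UMI per library, 4 members were higher and 10 lower in Fit2-Mut. At this setting a member with equal UMIs in both libraries, such as Trbv2 with 3 in each, counts as lower, since the Fit2-Mut total is larger. No share over all genes is given for this setting, so these counts are not read as a result.

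Added after seeing the data, leaving out the Trav8n-2 barcodes gave in Fit2-WT a Trav share of 18.2%, a largest Trav share of 11.4% and a segment in 28.2% of barcodes with Cd8, and 0 members lower in Fit2-Mut.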
